A study of Mus musculus with 8 samples.

Results

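The genes described here are 37 genes of the autophagy machinery, found by symbol in a table of 48440 genes in islet macrophages of mice fed a high-fat diet (HFD) or chow. All 37 were found, 1 row each, and 33 passed a filter on low counts and could be tested. The libraries came from macrophages sorted as CD11b+ and F4/80+ cells out of pancreatic islets of male wild-type C57BL/6J mice. HFD mice ate a diet of 45% fat, 20% protein and 35% carbohydrate at 19.67 kJ/g, and chow mice a diet of 8% fat, 21% protein and 71% carbohydrate at 10.88 kJ/g. Both diets ran for 8 weeks, starting at 8 weeks of age, so all mice were 16 weeks old. Each diet had 4 libraries, numbered 5 to 8 for HFD and 1 to 4 for chow. Every library pooled 2 mice, so the library is the unit of replication and the spread between single mice cannot be seen.

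Autophagy carries cytoplasm and organelles to the lysosome inside a double-membrane vesicle, the autophagosome. The ULK1 kinase complex starts the process, the class III phosphoinositide 3-kinase complex around Beclin 1 makes the lipid PI3P at the site, and ATG9 vesicles and ATG2 bring in lipid. Small ubiquitin-like proteins of the ATG8 family are then cut by ATG4 proteases and joined to the growing membrane by the ATG7, ATG3 and ATG12-ATG5-ATG16L1 enzymes, where cargo receptors bind them, and STX17 serves in fusion with the lysosome. In macrophages part of this machinery also acts on engulfed dead cells and microbes. Much of the control of autophagy acts on proteins, and protein levels, ATG8 lipidation and flux were not measured here.

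Values are CPM (the gene's count relative to the library's scaled total), scaled between libraries by TMM (trimmed mean of M values, an estimate of relative library size). Library totals ran from 4288665 to 6391247 counts, so 0 counts in 1 library allow a level of up to 0.468 to 0.708 CPM; this covers counting error only. The 10 macrophage markers summed to 5082 to 6370 CPM in HFD libraries and to 5241 to 7161 CPM in chow libraries, with none at 0. All 5 neutrophil markers were at 0 in every library. The 6 dendritic cell markers summed to 17.3 to 95.7 CPM in HFD libraries and to 45.1 to 141 CPM in chow libraries. The 8 stellate and fibroblast markers summed to 7.03 to 393 CPM in HFD libraries and to 1.87 to 24.0 CPM in chow libraries. The 10 acinar markers summed to 33.3 to 1459 CPM in HFD libraries and to 0.225 to 3062 CPM in chow libraries, with chow replicate 4 the highest. The 10 endocrine markers summed to 949 to 1832 CPM in HFD libraries and to 444 to 1751 CPM in chow libraries. Autophagy genes are used by all these cells, and how much of each value came from other cells was not tested. In sorted pools, fewer cells of a type and less RNA per cell cannot be told apart.

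No autophagy gene passed the test between the diets. The test was edgeR's quasi-likelihood test on each gene, with Benjamini-Hochberg adjustment over all 10129 genes tested. A log2 fold change is HFD over chow. SE is its approximate standard error, worked back from the fold change and the F statistic of the test. Of the 33 tested autophagy genes, 0 had an adjusted p under 0.05, against 0% of all genes tested. At an unadjusted p under 0.05 the count was also 0 of 33, against 5.35% of all genes. DESeq2 called 0 of the 36 autophagy genes to which it gave an adjusted p, against 0.735% of the genes it tested. The HFD libraries lay all above the chow libraries for 0 of 33 genes, against 1.68% of all genes, and all below for 0 of 33, against 1.71%. In the fit 13 genes had a positive log2 fold change and 20 a negative one, 39.4% positive against 48.6% of all genes tested. Their median log2 fold change was -0.14, against -0.021 over all genes tested. With the stellate and fibroblast marker sum as a covariate their median was -0.66. That sum was 208 to 393 CPM in HFD replicates 5 to 7. Only HFD replicate 8, at 7.03 CPM, lay within the chow range of 1.87 to 24.0 CPM. Diet and that sum can thus hardly be told apart, here and in every later fit with this covariate. Directions were loosely held: 20 of the 33 genes changed sign in at least 1 of 19 alternative settings. For Pik3c3, Atg5, Atg12, Atg4c and Map1lc3b this was solely the fit with the stellate and fibroblast covariate. No such share over all genes is given.

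A missed threshold does not show equal levels, so an approximate 95% interval of each log2 fold change was also computed from its SE. All 33 intervals included 0. For 6 genes, Rb1cc1, Ulk2, Uvrag, Atg3, Nbr1 and Tax1bp1, the interval lay within 2-fold (1 log2 unit) in either direction. This was narrowly so for Ulk2 (limit -0.99), Atg3 (-0.93) and Uvrag (0.91). For the other 27 genes a 2-fold difference was not excluded: 16 intervals reached 2-fold higher in HFD and 25 reached 2-fold lower. The SE ran from 0.25 to 1.54, with a median of 0.68 log2 units. Adjusted p-values from edgeR ran from 0.937 to 0.997.

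**Figure D1:**
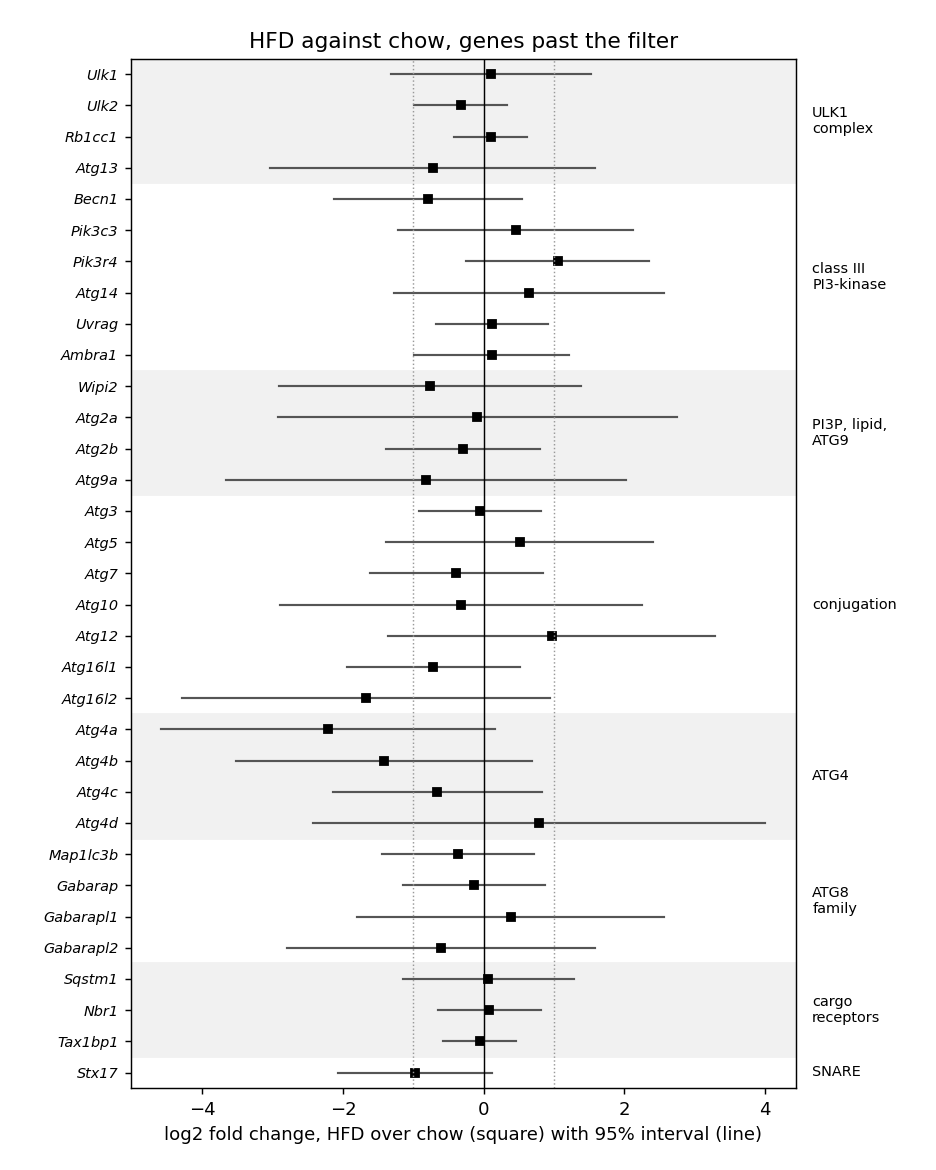
Fitted log2 fold change (HFD over chow, edgeR) of the 33 tested autophagy genes, with 95% intervals, grouped by role. All 33 intervals cross 0, and those of Rb1cc1 and Tax1bp1 are the narrowest while that of Atg4d is the widest.

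The ULK1 complex passes the starvation signal to the membrane, with the kinases ULK1 and ULK2, the scaffolds RB1CC1 (FIP200) and ATG13, and ATG101. Of its 5 genes 4 were tested, 2 with a positive and 2 with a negative log2 fold change. Rb1cc1 (chromosome 1, 6206197 to 6276648, plus strand; this and later gene positions are on GRCm38) stood at 178, 296, 281 and 273 CPM in HFD replicates 5 to 8, against 169, 345, 239 and 207 CPM in chow replicates 1 to 4. The highest and the lowest of these 8 values were both chow libraries, and the diets overlapped (log2 fold change 0.10, SE 0.25, adjusted p = 0.987; 95% interval -0.42 to 0.62). Ulk2 (chromosome 11, 61775649 to 61855073, minus strand) stood at 75.3, 99.2, 159 and 93.4 CPM in HFD replicates 5 to 8, against 124, 148, 176 and 87.3 CPM in chow replicates 1 to 4. Of the 4 chow values 3 exceeded 120 CPM while chow replicate 4 lay among the HFD libraries (log2 fold change -0.33, SE 0.32, adjusted p = 0.987). Ulk1 stood at 11.3, 30.2, 45.3 and 11.4 CPM in HFD replicates 5 to 8, against 29.7, 17.6, 30.9 and 13.2 CPM in chow replicates 1 to 4. Its HFD libraries split into 2 high and 2 low ones that spanned all 4 chow libraries (log2 fold change 0.10, SE 0.68, adjusted p = 0.988). Atg13 averaged 4.79 ± 1.80 CPM in HFD libraries and 7.95 ± 4.14 CPM in chow libraries (SD, n = 4 each). Atg101 was left out of the test, with counts of 20, 0, 0 and 10 in HFD replicates 5 to 8, against 0, 1, 0 and 0 in chow replicates 1 to 4.

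The class III phosphoinositide 3-kinase complex joins the lipid kinase PIK3C3 (VPS34), its regulatory subunit PIK3R4 (VPS15) and Beclin 1 with either ATG14 or UVRAG, and AMBRA1 binds Beclin 1. All 6 genes were tested; 5 had a positive log2 fold change and Becn1 a negative one, and the median was 0.29. Becn1 (chromosome 11, 101285952 to 101302286, minus strand) stood at 78.9, 26.4, 50.6 and 2.81 CPM in HFD replicates 5 to 8, against 44.3, 86.0, 45.4 and 98.4 CPM in chow replicates 1 to 4. HFD replicate 8 was far below the other 7 libraries, and the remaining HFD values overlapped those of chow (log2 fold change -0.79, SE 0.64, adjusted p = 0.987; 95% interval -2.12 to 0.55). In the GENCODE annotation 43.9% of the Becn1 exon bases are shared with Cntd1 on the opposite strand. Strand was not stated for the kit, so the reads of the pair cannot be told apart there. Over all libraries Cntd1 held 90.9 counts, against 803 for Becn1 in HFD and 1384 in chow libraries. With the stellate marker sum as a covariate the log2 fold change of Becn1 was -4.04, and with limma-voom it was -1.53. Pik3r4 (chromosome 9, 105642978 to 105687657, plus strand) stood at 27.2, 16.1, 58.8 and 49.4 CPM in HFD replicates 5 to 8, against 15.7, 29.0, 19.1 and 9.20 CPM in chow replicates 1 to 4. The 2 highest values were HFD libraries, but HFD replicates 5 and 6 lay within the chow range (log2 fold change 1.05, SE 0.62, adjusted p = 0.987). Pik3c3 stood at 25.2, 22.7, 45.9 and 16.1 CPM in HFD replicates 5 to 8, against 59.3, 3.75, 9.95 and 7.32 CPM in chow replicates 1 to 4. Chow replicate 1 was the highest library and the other 3 chow libraries were all below every HFD library (log2 fold change 0.45, SE 0.80, adjusted p = 0.987). Without chow replicate 1 the log2 fold change of Pik3c3 was 1.97, with an adjusted p of 0.759 from edgeR, and with the stellate marker sum as a covariate it was -0.74. Uvrag had the highest level per length of the group, at 122, 75.4, 139 and 129.9 CPM in HFD replicates 5 to 8, against 35.3, 139, 104 and 152 CPM in chow replicates 1 to 4, with chow replicate 1 alone under 40 CPM (log2 fold change 0.12, SE 0.38, adjusted p = 0.987). Atg14 averaged 17.1 ± 7.26 CPM in HFD libraries and 10.9 ± 13.1 CPM in chow libraries, with a log2 fold change of 0.65 that was 1.94 without chow replicate 4. Ambra1 averaged 37.3 ± 10.9 CPM in HFD libraries and 34.6 ± 17.3 CPM in chow libraries (SD, n = 4 each).

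WIPI1 and WIPI2 bind PI3P, ATG2A and ATG2B transfer lipid between membranes, and ATG9A is a membrane protein of the vesicles that seed the autophagosome. The 4 tested genes of this group all had a negative log2 fold change, with a median of -0.53, and none passed the test. The shared sign rested on single libraries: the log2 fold change of Atg2a, -0.089, was positive in 4 of the 8 fits without 1 library, at up to 0.36, and that of Atg2b was 0.18 without chow replicate 3. Atg2b, the highest of them per length, stood at 36.7, 42.9, 71.7 and 34.5 CPM in HFD replicates 5 to 8, against 27.0, 75.1, 105 and 20.3 CPM in chow replicates 1 to 4. The chow libraries held both its highest and its lowest value (log2 fold change -0.29, SE 0.52, adjusted p = 0.987). Atg9a, at 0 in 1 library, stood at 1.19, 4.51, 3.79 and 0 CPM in HFD replicates 5 to 8, against 2.25, 4.06, 3.73 and 6.84 CPM in chow replicates 1 to 4 (log2 fold change -0.82, SE 1.36, adjusted p = 0.987). With the stellate marker sum as a covariate the log2 fold change was -4.54 for Atg9a and -5.23 for Atg2a. In Atg9a 31.8% of the exon bases are shared with Gm29253 on the same strand, so the counts of Atg9a are uncertain. Over all libraries Gm29253 held 12.1 counts, against 50 for Atg9a in HFD and 83 in chow libraries. Wipi2 averaged 6.43 ± 4.03 CPM in HFD libraries and 10.9 ± 7.47 CPM in chow libraries, and Atg2a averaged 8.40 ± 7.70 CPM in HFD libraries and 8.94 ± 6.74 CPM in chow libraries (SD, n = 4 each). Wipi1 was left out of the test, with counts of 129, 7, 10 and 5 in HFD replicates 5 to 8, against 9, 1, 0 and 34 in chow replicates 1 to 4; HFD replicate 5 held most of them.

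The enzymes that join ATG12 to ATG5 and ATG8 proteins to lipid are ATG7 (shared E1-like enzyme), ATG3 and ATG10 (E2-like enzymes), and the ATG12-ATG5-ATG16L1 complex that sets the site; ATG16L2 is a paralogue of ATG16L1. All 7 genes were tested, 2 with a positive and 5 with a negative log2 fold change, with a median of -0.32; Atg3 turned positive, at 0.018, when scaled by library totals. Atg3 (chromosome 16, 45158785 to 45188538, plus strand) stood at 95.1, 62.5, 78.6 and 44.6 CPM in HFD replicates 5 to 8, against 46.3, 86.2, 42.3 and 117 CPM in chow replicates 1 to 4. Both diets held values under 50 and over 80 CPM (log2 fold change -0.056, SE 0.42, adjusted p = 0.989; 95% interval -0.93 to 0.81). Atg7 stood at 29.2, 19.3, 59.2 and 10.8 CPM in HFD replicates 5 to 8, against 27.6, 27.2, 39.0 and 61.6 CPM in chow replicates 1 to 4. HFD replicate 7 was close to the highest chow library, while the other 3 HFD libraries were at or below 30 CPM (log2 fold change -0.39, SE 0.59, adjusted p = 0.987). Atg5 stood at 29.2, 11.6, 26.6 and 3.62 CPM in HFD replicates 5 to 8, against 3.15, 10.1, 29.4 and 7.08 CPM in chow replicates 1 to 4, and each diet held low and high libraries (log2 fold change 0.51, SE 0.90, adjusted p = 0.987). Without chow replicate 3 the log2 fold change of Atg5 was 1.38, and with the stellate marker sum as a covariate it was -1.43.

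Atg16l1 (chromosome 1, 87755870 to 87792428, plus strand) stood at 60.6, 23.4, 16.4 and 34.3 CPM in HFD replicates 5 to 8, against 109.6, 64.3, 33.0 and 14.6 CPM in chow replicates 1 to 4. Chow replicate 1 was the highest and chow replicate 4 the lowest of the 8 libraries (log2 fold change -0.72, SE 0.59, adjusted p = 0.987). Atg16l2 stood at 25.0, 1.91, 0.211 and 3.82 CPM in HFD replicates 5 to 8, against 63.3, 0.468, 2.70 and 32.8 CPM in chow replicates 1 to 4. Each diet was split, with a high value in HFD replicate 5 and in chow replicates 1 and 4, and the rest under 4 CPM (log2 fold change -1.68, SE 1.25, adjusted p = 0.987). The log2 fold change of Atg16l2 was -3.62 without HFD replicate 5 and -0.62 without chow replicate 1, with adjusted p-values from edgeR of 0.998 and 0.99. With the endocrine marker sum as a covariate it was -0.20, and with the stellate one -3.28. Atg12 averaged 15.7 ± 9.30 CPM in HFD libraries and 8.01 ± 5.67 CPM in chow libraries, and Atg10 averaged 4.39 ± 3.13 CPM in HFD libraries and 5.52 ± 4.35 CPM in chow libraries (SD, n = 4 each).

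TFEB, TFE3 and MITF are transcription factors that bind E-box sequences in promoters of many lysosome and autophagy genes, so the promoters of the autophagy genes are shown beside those factors' transcripts. RefSeq promoters on GRCm38.p6, from 250 bases before to 50 bases after a start site, were matched for 31 of the 37 genes, with 35 promoters. The E-box CACGTG, which reads the same on both strands, was in 4 of these 35 (11.4%), against 7.15% of 32851 promoters of all genes; the 4 belong to Atg14, Atg3, Atg5 and Atg7. The longer form TCACGTGA, which contains the E-box, was in 1 of 35 (2.86%, Atg3), against 0.974% of all promoters. The promoters of 2 conjugation genes are printed, as those whose start site lies closest to the gene start of the annotation, with each E-box in capitals.
Atg3, chr16:45158579-45158878, plus strand: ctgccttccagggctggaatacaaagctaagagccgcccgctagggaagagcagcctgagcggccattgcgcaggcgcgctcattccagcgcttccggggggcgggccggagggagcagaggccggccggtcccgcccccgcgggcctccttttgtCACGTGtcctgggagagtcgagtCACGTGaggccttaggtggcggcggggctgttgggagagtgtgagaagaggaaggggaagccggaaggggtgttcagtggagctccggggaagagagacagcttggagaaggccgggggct
Atg5, chr10:44268089-44268388, plus strand: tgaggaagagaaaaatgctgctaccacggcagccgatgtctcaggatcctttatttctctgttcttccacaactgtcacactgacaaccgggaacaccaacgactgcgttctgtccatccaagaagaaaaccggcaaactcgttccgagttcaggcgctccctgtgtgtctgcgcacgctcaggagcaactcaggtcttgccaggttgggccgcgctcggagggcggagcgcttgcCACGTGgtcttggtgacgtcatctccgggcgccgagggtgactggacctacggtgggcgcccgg
Atg3 holds 2 E-boxes, the first 94 bases before its start, and Atg5 holds 1, 14 bases before its start. A match is a description of letters and not a binding site. Tfeb stood at 7.55, 13.0, 11.0 and 18.9 CPM in HFD replicates 5 to 8, against 3.37, 3.43, 23.8 and 21.9 CPM in chow replicates 1 to 4 (log2 fold change -0.060, SE 0.92, adjusted p = 0.997). Tfe3 averaged 71.8 ± 51.9 CPM in HFD libraries and 55.5 ± 41.6 CPM in chow libraries, and Mitf averaged 70.6 ± 4.55 CPM in HFD libraries and 72.4 ± 30.0 CPM in chow libraries (SD, n = 4 each). Their log2 fold changes were 0.37 for Tfe3 and -0.035 for Mitf, and no factor of the 3 passed the test.

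ATG4 proteases cut the newly made ATG8 proteins to expose the residue that is joined to lipid, and later free them from the membrane. All 4 genes were tested; 3 had a negative log2 fold change and Atg4d a positive one, and the median was -1.04, the lowest of the role groups with more than 1 tested gene. Atg4a (chromosome X, 140956907 to 141164270, plus strand) stood at 2.18, 0.695, 4.22 and 8.03 CPM in HFD replicates 5 to 8, against 48.1, 1.56, 11.0 and 9.91 CPM in chow replicates 1 to 4. Chow replicate 1 was the highest and chow replicate 2 was below 3 of the 4 HFD libraries, so the diets overlapped. Atg4a had the smallest unadjusted p of all 33 genes, 0.0654 (log2 fold change -2.21, SE 1.13, adjusted p = 0.937; 95% interval -4.59 to 0.16). Its log2 fold change was -0.99 without chow replicate 1 and -2.89 without HFD replicate 8, and -0.75 with the endocrine marker sum as a covariate. Atg4b (chromosome 1, 93751500 to 93790610, plus strand) stood at 7.55, 1.39, 12.0 and 4.22 CPM in HFD replicates 5 to 8, against 14.8, 11.9, 3.11 and 37.8 CPM in chow replicates 1 to 4. Chow replicate 4 was the highest, and chow replicates 2 and 3 lay within the HFD range (log2 fold change -1.42, SE 1.01, adjusted p = 0.987); without chow replicate 4 the log2 fold change was -0.67. Atg4c, the highest of the 4 genes per length, stood at 38.9, 22.9, 2.74 and 42.4 CPM in HFD replicates 5 to 8, against 24.0, 61.2, 71.3 and 12.3 CPM in chow replicates 1 to 4. Chow replicates 2 and 3 were the highest and HFD replicate 7 the lowest library (log2 fold change -0.66, SE 0.71, adjusted p = 0.987).

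Summed over the 4 ATG4 genes, the level was 52.6, 27.6, 29.1 and 54.6 CPM in HFD replicates 5 to 8, against 93.0, 77.7, 85.8 and 59.9 CPM in chow replicates 1 to 4. The sum averaged 41.0 ± 14.6 CPM in HFD libraries and 79.1 ± 14.2 CPM in chow libraries (SD, n = 4 each), and every HFD sum was below every chow sum. The gap between the lowest chow and the highest HFD sum was 5.31 CPM. The genes peaked in different chow libraries, Atg4a in replicate 1, Atg4c in replicate 3 and Atg4b in replicate 4. This sum was singled out among 8 role sums after its values were seen, so no test is given. Of all single genes tested, 1.71% had every HFD library below every chow library, and no such share is given for sums. Atg4d averaged 4.17 ± 4.29 CPM in HFD libraries and 2.40 ± 2.81 CPM in chow libraries, and its log2 fold change of 0.79 was -0.13 without HFD replicate 7 and 1.77 without chow replicate 1. In Atg4d 19.3% of the exon bases overlap Kri1 on the opposite strand. Over all libraries Kri1 held 433 counts, against 83 for Atg4d in HFD and 49 in chow libraries.

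**Figure D2:**
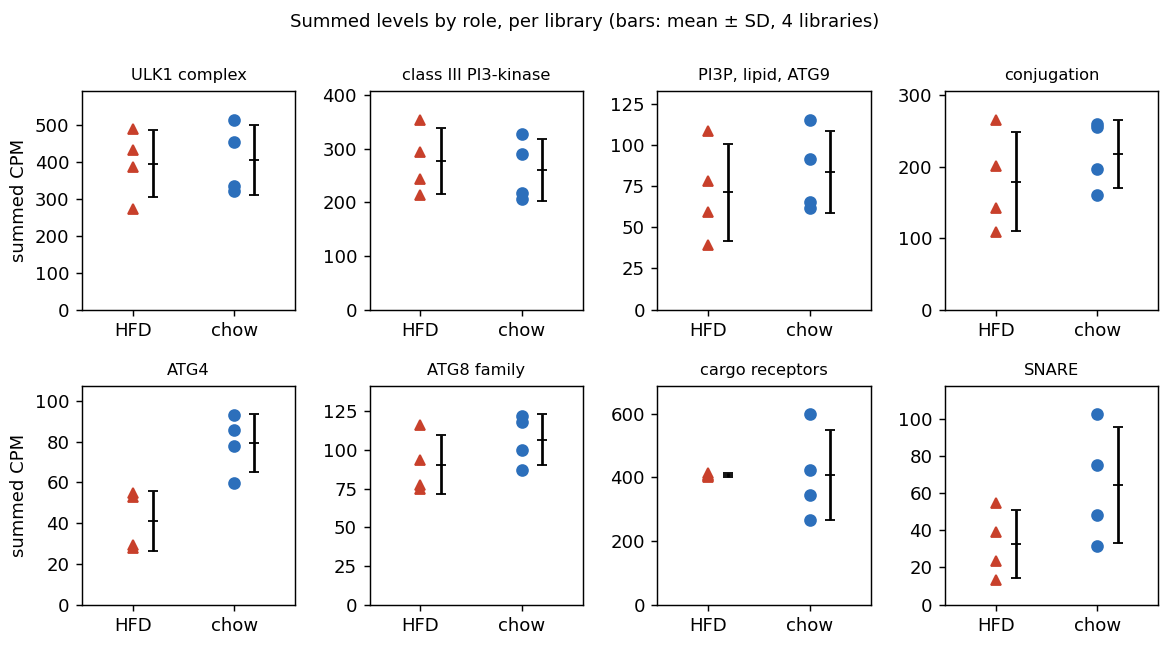
Summed CPM of the genes of each role group in each library, HFD left of chow, with the mean and SD over 4 libraries. The ATG4 sums are the ones in which the diets do not overlap. The cargo receptor sums lie close together in HFD and far apart in chow, while the tested receptors each spread more than their sum in HFD. The ATG4 and cargo receptor sums were singled out after the values were seen.

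The ATG8 family are the ubiquitin-like proteins that coat the autophagosome and hold cargo receptors, with an LC3 and a GABARAP branch. Of the 5 genes 4 were tested, 1 with a positive and 3 with a negative log2 fold change. Map1lc3b (chromosome 8, 121590361 to 121598760, plus strand) stood at 28.2, 36.3, 44.0 and 32.7 CPM in HFD replicates 5 to 8, against 16.2, 68.4, 35.9 and 61.6 CPM in chow replicates 1 to 4. The HFD libraries lay inside the chow range (log2 fold change -0.37, SE 0.52, adjusted p = 0.987). Gabarap (chromosome 11, 69991143 to 69994951, plus strand) had the highest level per length of the family, at 28.4, 31.4, 38.8 and 50.2 CPM in HFD replicates 5 to 8, against 41.3, 41.4, 54.7 and 26.2 CPM in chow replicates 1 to 4. The highest and the lowest library were both chow (log2 fold change -0.14, SE 0.48, adjusted p = 0.987; 95% interval -1.14 to 0.87).

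Gabarapl1 stood at 8.14, 7.12, 2.32 and 26.7 CPM in HFD replicates 5 to 8, against 19.3, 5.62, 2.70 and 6.37 CPM in chow replicates 1 to 4, and each diet had a library over 15 CPM (log2 fold change 0.38, SE 1.04, adjusted p = 0.987). Its log2 fold change was -0.53 without HFD replicate 8 and 1.17 without chow replicate 1. Gabarapl2 stood at 9.73, 2.60, 8.43 and 6.83 CPM in HFD replicates 5 to 8, against 10.3, 6.56, 23.0 and 2.12 CPM in chow replicates 1 to 4, with the highest value in chow replicate 3 (log2 fold change -0.61, SE 1.05, adjusted p = 0.987); without that library the log2 fold change was 0.11. Map1lc3a was left out of the test, with counts of 1, 0, 0 and 0 in HFD replicates 5 to 8, against 0, 0, 9 and 16 in chow replicates 1 to 4. Among the LC3 genes of the list, Map1lc3b was thus the one detected in every library.

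Cargo receptors bind ubiquitin-marked cargo and ATG8 proteins at once, and p62, the product of Sqstm1, is itself broken down by autophagy. Of the 4 genes 3 were tested, 2 with a positive and 1 with a negative log2 fold change, and the median was 0.067; Tax1bp1 turned positive, at 0.020, when scaled by library totals. Tax1bp1 (chromosome 6, 52713729 to 52766780, plus strand) stood at 221, 222, 293 and 236 CPM in HFD replicates 5 to 8, against 200.4, 179.7, 239 and 392 CPM in chow replicates 1 to 4. The HFD libraries were close together and inside the chow range, where replicate 4 was the highest (log2 fold change -0.055, SE 0.25, adjusted p = 0.987; 95% interval -0.58 to 0.47). Nbr1 (chromosome 11, 101552149 to 101581951, plus strand) stood at 152, 111, 96.3 and 95.8 CPM in HFD replicates 5 to 8, against 50.1, 142, 82.9 and 154 CPM in chow replicates 1 to 4. Chow replicate 1 was the lowest and chow replicate 4 the highest library (log2 fold change 0.081, SE 0.35, adjusted p = 0.987). Sqstm1 (chromosome 11, 50199366 to 50210827, minus strand) stood at 31.8, 70.5, 22.8 and 68.9 CPM in HFD replicates 5 to 8, against 14.6, 100.4, 23.0 and 47.0 CPM in chow replicates 1 to 4. Each diet held 2 values over 45 and 2 under 35 CPM (log2 fold change 0.067, SE 0.58, adjusted p = 0.992; 95% interval -1.15 to 1.28). Without chow replicate 2 its log2 fold change was 0.78. Optn (optineurin) was left out of the test, with counts of 2, 0, 11 and 0 in HFD replicates 5 to 8, against 0, 0, 0 and 18 in chow replicates 1 to 4. The summed level of the 4 receptors was 406, 403, 415 and 401 CPM in HFD replicates 5 to 8, against 265, 422, 345 and 597 CPM in chow replicates 1 to 4. Its mean was 406 ± 6.01 CPM in HFD libraries and 407 ± 142 CPM in chow libraries (SD, n = 4 each). Like the ATG4 sum, it was singled out among 8 role sums after its values were seen, so no test is given. The 3 tested receptors each varied more than this sum in HFD libraries. Their SDs there were 34.0 CPM for Tax1bp1, 26.4 CPM for Nbr1 and 24.8 CPM for Sqstm1. In chow libraries the SDs were 95.8, 49.4 and 38.6 CPM in the same order.

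Stx17 encodes the SNARE protein syntaxin 17, which sits on the closed autophagosome and pairs with SNAP29 and VAMP8 for fusion with the lysosome. Stx17 (chromosome 4, 48124915 to 48186507, plus strand) stood at 13.1, 54.7, 39.2 and 23.5 CPM in HFD replicates 5 to 8, against 75.5, 48.1, 103 and 31.6 CPM in chow replicates 1 to 4. The 2 highest libraries were chow and the 2 lowest HFD, while HFD replicate 6 exceeded chow replicates 2 and 4. Its unadjusted p of 0.0763 was the second smallest of the 33 genes (log2 fold change -0.98, SE 0.52, adjusted p = 0.957; 95% interval -2.08 to 0.11). Its partners Snap29 and Vamp8 had log2 fold changes of -0.26 and 0.053, with adjusted p-values from edgeR of 0.987 and 0.995.

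**Figure D3:**
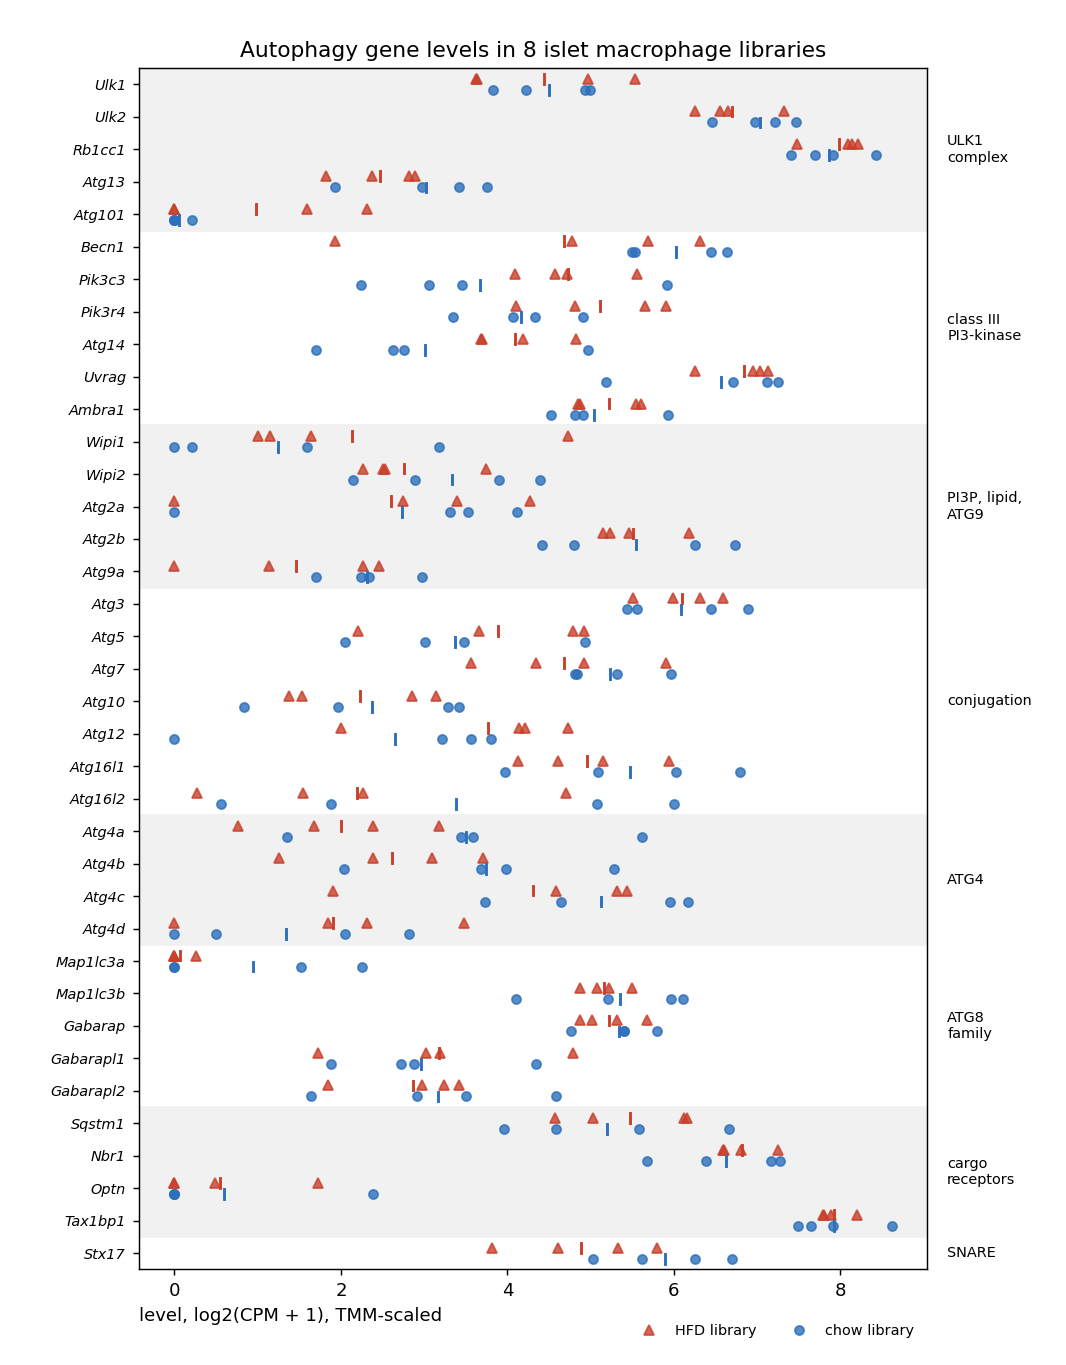
Level of each of the 37 autophagy genes on a log2(CPM + 1) axis, grouped by role, with HFD libraries as triangles above chow libraries as circles and a tick at each diet's mean. Rb1cc1 and Tax1bp1 are high in all 8 libraries, and Atg101, Map1lc3a and Optn are at 0 in 5 libraries each.

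Levels can be set side by side between genes only per length, here as CPM per kilobase of all annotated exon bases, averaged over the 8 libraries. Tax1bp1 was the highest at 24.8 ± 6.68 CPM per kilobase (SD over 8 libraries). Atg3 followed at 22.7 ± 8.65, Gabarap at 21.2 ± 5.49, Ulk2 at 20.2 ± 6.25, Rb1cc1 at 16.9 ± 4.17 and Nbr1 at 16.1 ± 5.36 CPM per kilobase. Each of these 6 differed from the next by less than its SD. Sqstm1 stood at 14.1 ± 8.96, Uvrag at 12.4 ± 4.34 and Atg4c at 10.3 ± 7.04 CPM per kilobase, again with steps under 1 SD. Lower in the order came Stx17 at 8.18 ± 4.91, Becn1 at 7.66 ± 4.53, Map1lc3b at 5.38 ± 2.29 and Ulk1 at 3.65 ± 1.88 CPM per kilobase. The lowest tested gene was Atg4d at 0.453 ± 0.480 CPM per kilobase. The exon union counts every annotated isoform, so a gene with long unused exons reads low on this scale.

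**Figure D4:**
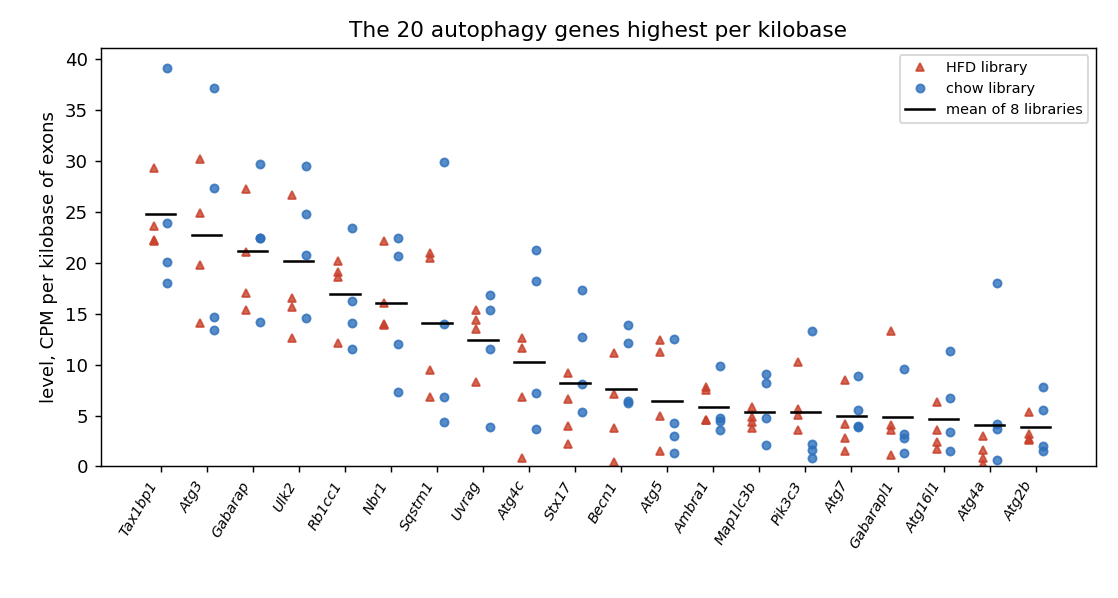
CPM per kilobase of exon union for the 20 autophagy genes with the highest level, with HFD libraries as triangles, chow libraries as circles and a line at the mean of all 8. Tax1bp1, Atg3 and Gabarap head the order, and the symbols of both diets intermix for the genes shown.

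The libraries of one diet differed far more than counting error. The coefficient of variation (CV, the SD as a percent of the mean) had a median of 55.8% in HFD and 67.5% in chow over the 33 tested autophagy genes, against 52.6% in HFD and 59.2% in chow over all genes tested. These CVs were a median of 6.33 times the CV that counting alone gives, and 1.88 to 13.3 times over the genes. The CV was higher in HFD than in chow for 11 of 33 genes (33.3%), against 42.1% of all genes. In 6 genes the highest library was under 3 times the lowest, and in 14 it was over 10 times or the lowest was at 0. The fit's biological coefficient of variation (BCV, its estimate of the spread between libraries beyond counting) ran from 0.304 in Rb1cc1 to 1.33 in Atg4d, with a median of 0.681 against 0.736 over all genes. The mean level of the 33 genes had a median of 28.1 CPM, against 22.8 CPM over all genes tested; 5 of them were over 100 CPM and 8 under 10 CPM.

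Highest values were counted per library. Of the 37 genes 12 had their highest value in chow replicate 4, 7 each in chow replicates 1 and 3, and 0 in HFD replicate 6. The 37 include genes left out of the test for low counts. No such count over all genes is given, so it is not read as a trait of autophagy genes. Chow replicate 4 also had the highest acinar marker sum and the lowest library total, and a link was not tested. With the acinar marker sum as a covariate the median log2 fold change of the 33 genes was -0.27, and 1 gene moved by more than 1.5-fold, Atg4d, to 2.47. Of the 37 genes 13 share exon bases with another annotated gene, so their counts are less certain. Beside those given above, the share was 28.3% in Gabarapl1, 17.6% in Uvrag and 17.3% in Sqstm1. The overlapping genes held 0, 440 and 14.3 counts over all libraries, in the same order. Over the 37 genes 22 of 296 values were 0, in 8 genes, of which 4 were tested. The summed level of all 37 genes was 1491 ± 161 CPM in HFD libraries and 1624 ± 175 CPM in chow libraries (SD, n = 4 each).

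**Figure D5:**
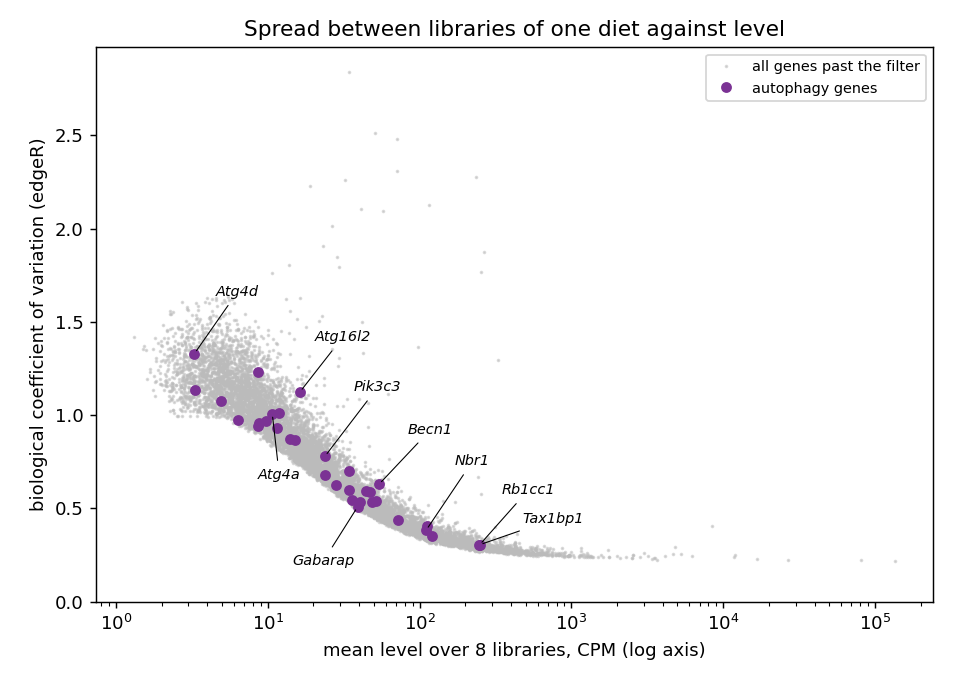
Biological coefficient of variation of edgeR against mean CPM (log axis) for all 10129 genes tested (grey) and the 33 autophagy genes (purple). Rb1cc1 and Tax1bp1 lie at 0.304 and 0.305 with mean levels of 249 and 248 CPM, and the genes under 10 CPM lie between 0.940 and 1.33.

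Genes around the machinery were counted in 5 further lists, and edgeR called 0 genes in each. Nutrient sensing by mTORC1, AMPK and TSC had 21 of 28 genes tested, 11 positive and 10 negative, with a median log2 fold change of 0.051. Mtor, the kinase that holds autophagy off when food is plentiful, stood at 69.5, 61.1, 40.5 and 78.9 CPM in HFD replicates 5 to 8, against 49.2, 35.6, 46.4 and 27.6 CPM in chow replicates 1 to 4 (log2 fold change 0.65, SE 0.43, adjusted p = 0.987). Prkab1, an AMPK subunit, stood at 5.76, 2.95, 4.64 and 3.01 CPM in HFD replicates 5 to 8, against 24.0, 2.34, 13.7 and 5.43 CPM in chow replicates 1 to 4 (log2 fold change -1.47, SE 1.10, adjusted p = 0.987). Prkaa1, a catalytic AMPK subunit, stood at 68.7, 83.5, 96.1 and 66.1 CPM in HFD replicates 5 to 8, against 105, 53.9, 18.9 and 33.5 CPM in chow replicates 1 to 4 (log2 fold change 0.57, SE 0.47, adjusted p = 0.987). The diets overlapped in all 3 of these genes, which had the smallest p-values of the list.

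The 11 MiT/TFE and FOXO transcription factors and their regulators were all tested, 6 positive and 5 negative, with a median of 0.047. Tfec, a factor of the TFEB family, stood at 64.0, 21.9, 23.6 and 9.04 CPM in HFD replicates 5 to 8, against 20.4, 5.00, 0.622 and 6.84 CPM in chow replicates 1 to 4 (log2 fold change 1.85, SE 0.92, adjusted p = 0.935). Fnip1, a folliculin partner, stood at 125, 166, 177 and 95.2 CPM in HFD replicates 5 to 8, against 122, 87.6, 31.3 and 98.6 CPM in chow replicates 1 to 4 (log2 fold change 0.73, SE 0.37, adjusted p = 0.937). Foxo1 stood at 53.2, 45.0, 55.0 and 20.1 CPM in HFD replicates 5 to 8, against 119, 65.4, 60.7 and 54.5 CPM in chow replicates 1 to 4 (log2 fold change -0.79, SE 0.44, adjusted p = 0.987). In each of the 3 genes 1 HFD library lay inside the chow range. Other genes of autophagosome formation had 18 of 18 tested, 10 positive and 8 negative, with a median of 0.029. Tbk1, a kinase that acts on cargo receptors, stood at 93.0, 78.0, 63.2 and 141 CPM in HFD replicates 5 to 8, against 134, 109, 133 and 209.6 CPM in chow replicates 1 to 4 (log2 fold change -0.65, SE 0.32, adjusted p = 0.935). Tecpr2 stood at 11.9, 5.38, 9.91 and 20.3 CPM in HFD replicates 5 to 8, against 20.2, 6.56, 39.8 and 26.7 CPM in chow replicates 1 to 4 (log2 fold change -0.97, SE 0.79, adjusted p = 0.987). Tecpr1 stood at 4.57, 16.1, 21.9 and 6.23 CPM in HFD replicates 5 to 8, against 23.6, 5.31, 37.5 and 27.1 CPM in chow replicates 1 to 4 (log2 fold change -0.93, SE 0.82, adjusted p = 0.987). The diets overlapped in Tbk1, Tecpr2 and Tecpr1.

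Other receptors of selective autophagy had 17 of 18 genes tested, 8 positive and 9 negative, with a median of -0.072. Bcl2l13, which encodes an outer mitochondrial membrane protein described as a mitophagy receptor, stood at 59.2, 34.0, 39.4 and 38.6 CPM in HFD replicates 5 to 8, against 6.74, 5.15, 6.84 and 17.9 CPM in chow replicates 1 to 4. Every HFD library exceeded every chow library in this 1 gene of the 17 tested, against 1.68% of all genes tested. The gene did not pass the edgeR threshold (log2 fold change 2.22, SE 0.65, adjusted p = 0.715, unadjusted p = 0.00283). DESeq2 gave it an adjusted p of 0.0096 and called this 1 gene of the list, against 0.735% of all genes it tested. Bcl2l13 was named for its small p, so these values give no separate support. Stbd1, a receptor for glycogen, stood at 0.199, 7.64, 5.27 and 19.3 CPM in HFD replicates 5 to 8, against 12.4, 57.4, 19.5 and 33.5 CPM in chow replicates 1 to 4 (log2 fold change -1.92, SE 0.93, adjusted p = 0.935). Ncoa4, the ferritin receptor, stood at 78.7, 38.7, 38.8 and 51.2 CPM in HFD replicates 5 to 8, against 44.7, 37.6, 25.3 and 30.2 CPM in chow replicates 1 to 4 (log2 fold change 0.59, SE 0.47, adjusted p = 0.987). The diets overlapped in Stbd1 and Ncoa4.

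Genes of fusion with the lysosome had 15 of 16 tested, 7 positive and 8 negative, with a median of -0.12. Stx7, an endosomal SNARE, stood at 251, 218, 250.0 and 259.7 CPM in HFD replicates 5 to 8, against 149.6, 239, 136 and 159.8 CPM in chow replicates 1 to 4, with HFD replicate 6 below chow replicate 2 (log2 fold change 0.51, SE 0.24, adjusted p = 0.912; unadjusted p = 0.0436). Grn, which encodes the lysosomal protein progranulin, stood at 733, 281, 338 and 229 CPM in HFD replicates 5 to 8, against 279.7, 296, 283 and 213 CPM in chow replicates 1 to 4. HFD replicate 5 was the highest library for Grn, and HFD replicates 6 and 8 lay within the chow range (log2 fold change 0.56, SE 0.29, adjusted p = 0.937). Vps18, a subunit of the HOPS tether, stood at 2.78, 3.30, 31.8 and 12.1 CPM in HFD replicates 5 to 8, against 40.4, 20.5, 32.6 and 28.8 CPM in chow replicates 1 to 4, with HFD replicate 7 inside the chow range (log2 fold change -1.29, SE 0.79, adjusted p = 0.987).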

How the data were processed

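RNA sequencing of 8 libraries of sorted islet macrophages was used, 4 per diet, each from 2 pooled mice. RNA was amplified with the Ovation RNA-Seq System V2, per the labels' protocols; strand and molecular identifiers were not stated. Reads passed through FastQC, Trim Galore and STAR on GRCm38, per the submitters' processing notes. The sources used here give no versions, counting program or annotation. Deposited values are expected counts of 48440 genes, not scaled; 7.66% to 8.32% of values above 0 were not whole numbers, and all were rounded.

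Tests used edgeR 4.0.16 (TMM, filterByExpr by diet, robust quasi-likelihood fit, two-sided, Benjamini-Hochberg at 0.05) in R 4.3.3. Alternatives used DESeq2 1.42.0, limma-voom (limma 3.58.1), other scalings and filters, marker covariates and each library left out. Replicates are separate pools per the labels, and all 28 pairs of libraries differed by more than sampling noise (chi-square per degree of freedom at least 36.3). Coordinates and exon lengths are from GENCODE on GRCm38, 1-based.

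The autophagy genes and all lists were chosen with earlier results of these data known. Values per library were to be given for a panel of 18 genes, the 8 genes with the smallest p, the highest gene per length in each role group and 3 genes with the smallest p in each further list (list symbols absent from the table were matched by gene ID); others named were chosen after their values were seen.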

Additional observations from a re-analysis of the deposited data

Results flagged for a closer look

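In 8 of the 74 groups of 4 libraries examined (37 genes in 2 diets), 1 library stood apart from the other 3 by Dixon's criterion. The criterion marks about 1 group in 20 by chance only where values are normally distributed. That was not shown for these CPM values, so the count is not compared with that rate. Each flagged value was the highest of its group. In 3 of the 8, Atg101, Map1lc3a and Optn, the other libraries are all at 0 and any count stands apart. In HFD, Wipi1 was at 25.6 CPM in replicate 5, against 1.00 to 2.11 CPM in the other HFD libraries. Atg16l2 was at 25.0 CPM in HFD replicate 5, against 0.211 to 3.82 CPM in the others. Wipi2 was at 12.4 CPM in HFD replicate 7, against 3.82 to 4.77 CPM in the others. Map1lc3a was at 0.199 CPM in HFD replicate 5 and at 0 in the others, which is 1 count. In chow, Pik3c3 was at 59.3 CPM in replicate 1, against 3.75 to 9.95 CPM in the others. Atg14 was at 30.4 CPM in chow replicate 4, against 2.25 to 5.78 CPM in the others. Optn was at 4.25 CPM in chow replicate 4 and at 0 in the others. Atg101 was at 0.156 CPM in chow replicate 2 and at 0 in the others, which is also 1 count. HFD replicate 5 gave 3 of these values.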

How the results depend on the processing

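No autophagy gene had an adjusted p under 0.05 in any of the 19 alternatives run. Over all genes, edgeR called 45 with no filter, DESeq2 92, limma-voom 1, and edgeR 0 to 11 with a library left out (11 without HFD replicate 8). At an unadjusted p under 0.05, 1 autophagy gene passed with DESeq2 (Atg4a; 7.10% of all genes), limma-voom (Becn1; 5.76%), a stellate covariate (Becn1; 4.39%) and an endocrine covariate (Pik3c3; 5.62%). With a library left out 0 to 1 passed, against 4.61% to 6.41% of all genes: Atg16l2 without HFD replicate 5, Stx17 without HFD replicate 6 or chow replicate 4, Atg4a without HFD replicate 8 or chow replicate 2, and Pik3c3 without chow replicate 1. With a library left out, genes with HFD all above chow numbered 0 to 1, against 2.94% to 3.79% of all genes (Atg12 without HFD replicate 8, Pik3c3 without chow replicate 1, Atg14 without chow replicate 4), and all below 0 to 2, against 2.87% to 3.45% (Atg13 and Atg4a without chow replicate 2). The median log2 fold change was -0.66 with the stellate covariate, a marker sum that lay within the chow range in HFD replicate 8 alone among HFD libraries. Diet and that sum can thus hardly be told apart in this fit. That covariate moved 17 of 33 genes by more than 1.5-fold, with Atg2a at -5.23, Atg9a at -4.54 and Becn1 at -4.04 moving most among those that kept their direction, and reversed Ulk1 (-0.88), Pik3c3 (-0.74), Ambra1 (-0.52), Atg5 (-1.43), Atg12 (-0.73), Atg4c (0.041), Atg4d (-3.82), Map1lc3b (0.30), Gabarap (0.21) and Tax1bp1 (0.034). The endocrine covariate reversed Rb1cc1 (-0.041), Atg10 (0.020) and Sqstm1 (-0.31), library totals Atg3 (0.018) and Tax1bp1 (0.020), and limma-voom Atg2b (0.051); the cause was not tested. With each library left out in turn, log2 fold changes ran through 0 for Ambra1 (-0.055 to 0.52), Atg10 (-0.75 to 0.10), Atg2a (-0.81 to 0.36), Atg2b (-0.58 to 0.18), Atg3 (-0.24 to 0.26), Atg4d (-0.13 to 1.77), Gabarap (-0.32 to 0.032), Gabarapl1 (-0.53 to 1.17), Gabarapl2 (-0.96 to 0.11), Nbr1 (-0.16 to 0.30), Rb1cc1 (-0.041 to 0.33), Sqstm1 (-0.23 to 0.78), Tax1bp1 (-0.19 to 0.23), Ulk1 (-0.37 to 0.35) and Uvrag (-0.17 to 0.32). Leaving out 1 library moved 11 genes by more than 1.5-fold in at least 1 fit. The 8 genes with the smallest p kept their direction in all alternatives run, though not their size (Atg4a -2.89 to -0.75). Every HFD sum of the ATG4 genes stayed below every chow sum under 3 other scalings, an alternative chosen after seeing the data, with a gap of 2.76 to 5.55 CPM. These scalings reuse the same counts, so they give no separate support for the gap. No paired analysis was possible because the replicate numbers, 5 to 8 in HFD and 1 to 4 in chow, are not shared. Counts under 10 CPM and pools of 2 mice limit what can be resolved.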
